A study of Mus musculus with 20 samples.

Results

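The SMYD genes encode lysine methyltransferases in which the catalytic SET domain is split by a MYND zinc finger. The family members were taken by symbol from the deposited table of embryonic mouse heart RNA-seq, where Smyd1, Smyd2, Smyd3, Smyd4 and Smyd5 account for 5 of 33495 genes. They were followed in all 20 libraries of the series, which come from 3 Cre lines that delete floxed Kmt2d, itself a SET domain enzyme that methylates histone H3 lysine 4 at enhancers and promoters. Mutant libraries carry Cre; Kmt2d fl/fl; mTmG/+ and control libraries carry the same Cre with Kmt2d fl/+ and mTmG/+, so the controls have also lost 1 allele in the cells where Cre was active. All embryos are labelled C57BL/6. Mesp1Cre, active in early mesoderm, was sampled as whole hearts at E9.0 (4 mutants and 4 controls). Tnnt2::Cre, active in cardiomyocytes only and so leaving Kmt2d in the other cells of the heart, was sampled as whole hearts at E11.5 (3 mutants and 3 controls). Mef2cAHF::Cre, active in anterior heart field precursors, was sampled as right ventricle and outflow tract at E11.5 (3 libraries labelled mutant and 3 labelled control). The protocol text of the labels gives E11.5 for the Mesp1Cre hearts as well, against E9.0 in their other labels.

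SMYD1 is restricted to heart and skeletal muscle, where it works with the muscle form of the nascent polypeptide associated complex (Naca) and with histone deacetylases, and where it is also found at the sarcomere with the myosin chaperone UNC45B and HSP90. Loss of Smyd1 is known to arrest right ventricle growth and myofibril assembly in the embryo. SMYD2 and SMYD3 are broadly expressed and methylate proteins outside chromatin as well as histones, SMYD5 methylates histones at repressed genes, and SMYD4 is the least studied member.

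The genotype labels of 1 line are in conflict. For Mef2cAHF::Cre the titles and genotypes give 3 mutants and 3 controls, and the column names of the table call each of the same libraries by the opposite genotype. Kmt2d, listed as Mll2, was measured in CPM, the reads counted for a gene scaled to a common library total after TMM adjustment. It stood at 133 ± 7.14 CPM (SD, n = 4) in Mesp1Cre mutants against 156 ± 5.54 in controls, and at 118 ± 4.30 (n = 3) in Tnnt2::Cre mutants against 149.8 ± 20.8 in controls. In Mef2cAHF::Cre it stood at 185.5 ± 3.72 CPM in the libraries labelled mutant and at 149 ± 5.71 in those labelled control. The groups did not overlap in CPM in any line, as for 18.1% of all genes in Mesp1Cre, 16.9% in Tnnt2::Cre and 23.9% in Mef2cAHF::Cre. In Mef2cAHF::Cre the difference ran against the titles. In the deposited FPKM, which divide counts by gene length and library total, Kmt2d overlapped in Mesp1Cre (mutants 8.53 to 9.31, controls 8.98 to 9.72). It also overlapped in Tnnt2::Cre (6.36 to 7.94 and 6.93 to 9.75). In Mef2cAHF::Cre the libraries labelled mutant (11.05 to 11.76) stayed above those labelled control (9.46 to 10.78). Counts of Kmt2d cover the whole gene, including exons that the deletion leaves in place. All Mef2cAHF::Cre values below follow the titles, and the column names turn each of their signs. Reads counted per library ran from 21727258 to 45341870. The median log2 difference between genotypes over 13 erythroid markers was −1.24 for Mesp1Cre, −1.07 for Tnnt2::Cre and 1.05 for Mef2cAHF::Cre. In the same order 5 and 0 passed as lower and 2 as higher, where 5.29%, 0.217% and 1.81% of all genes did. The summed levels of these markers overlapped between the genotypes of each line. Libraries with at least 10 CPM summed over 4 Y-linked genes were taken as male. All 4 Mesp1Cre mutants were male against 2 of 4 controls. In Tnnt2::Cre 1 of 3 mutants and 2 of 3 controls were male. In Mef2cAHF::Cre 0 of 3 libraries labelled mutant and 1 of 3 labelled control were. In whole-tissue RNA fewer cells of a type cannot be told apart from less RNA per cell.

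In the mm9 build that the files use, Smyd1 (ENSMUSG00000055027) lies on chromosome 6 from 71163934 to 71271943 on the minus strand, with up to 10 exons in a transcript. Krcc1 and Gm1070 lie within its span, and 0 genes share exon bases with it. Smyd5 (ENSMUSG00000033706) is on the same chromosome at 85381983 to 85396429, plus strand, and is the most compact member with 14.4 kb. Smyd2 (ENSMUSG00000026603; 191704371 to 191746242) and Smyd3 (ENSMUSG00000055067; 180882091 to 181448172) lie on the minus strand of chromosome 1, where Smyd3 spans 566.1 kb. Smyd4 (ENSMUSG00000018809) is on chromosome 11 at 75161935 to 75219207, plus strand. None of the 5 genes shares exon bases with another gene. A search of the mm9 genome with the longest coding transcript of each gene found 0 further matches of at least 100 bases and 95% identity for Smyd1, Smyd2, Smyd3 and Smyd5, and 16 short ones for Smyd4, the longest with 116 bases.

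The start regions of the 2 most abundant members differ in base composition, and are shown because Smyd1 and Smyd2 carry the main differences below. Each line gives the 250 bases before the RefSeq start on the coding strand (RefSeq promoter table, GRCm38.p6), with every CG dinucleotide in capitals.
Smyd1: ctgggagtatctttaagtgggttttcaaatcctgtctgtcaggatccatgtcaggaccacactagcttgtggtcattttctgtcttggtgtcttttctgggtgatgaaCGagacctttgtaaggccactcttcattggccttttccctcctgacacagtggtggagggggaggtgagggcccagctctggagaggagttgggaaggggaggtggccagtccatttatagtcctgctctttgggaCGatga
Smyd2: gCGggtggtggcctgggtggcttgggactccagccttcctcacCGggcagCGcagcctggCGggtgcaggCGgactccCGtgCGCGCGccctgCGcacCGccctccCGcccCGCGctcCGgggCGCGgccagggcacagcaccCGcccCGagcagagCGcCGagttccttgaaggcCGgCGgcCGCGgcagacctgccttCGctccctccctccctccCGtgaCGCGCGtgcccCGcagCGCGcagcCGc
The same letters occur once on their chromosome in mm9, at chr6:71212276-71212525 for Smyd1 and at chr1:191746171-191746420 for Smyd2, both on the minus strand. The Smyd1 window lies inside the span of the gene, downstream of its most distal annotated start. The Smyd2 window crosses the annotated start of its gene, at 191746242, and so lies partly inside the gene. The Smyd1 window holds 2 CG dinucleotides and 51.6% G and C, where the medians over 32851 promoter windows of this length are 6.0 and 52.4%. The Smyd2 window holds 34 CG dinucleotides and 78.8% G and C, and 96.5% of all windows hold fewer CG. Windows were also available for Smyd4, with 28 CG dinucleotides, and for Smyd5, with 10. On either strand, the Smyd1 window has 1 match to TATAAA, from 28 to 23 bases before the start, which 12.4% of all windows have, and 1 to AAGTG, the NKX2-5 core, which 40.7% have. The E-box CANNTG, found in 66.2% of all windows, has 0 matches in the windows of Smyd1, Smyd2 and Smyd5 and 2 in that of Smyd4. The MEF2 element, in 2.92% of all windows, and the CArG box, in 1.47%, have 0 matches in the 4 windows. Smyd3 has no entry in the promoter table.

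Smyd1 was by far the most abundant member in every library. On the FPKM scale, which divides by gene length and allows genes to be compared, its group means ran from 67.6 to 179.5. Smyd2 followed with 14.7 to 27.5 FPKM, Smyd5 with 3.96 to 7.002, Smyd4 with 1.76 to 2.41 and Smyd3 with 0.835 to 1.56. Depth differs accordingly. Smyd1 had between 4814 and 19533 reads in a library and Smyd2 between 763 and 2578, while Smyd3 had 119 to 411 and Smyd4 127 to 388, so that a given fold is less precisely measured for the latter pair.

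**Figure D1:**
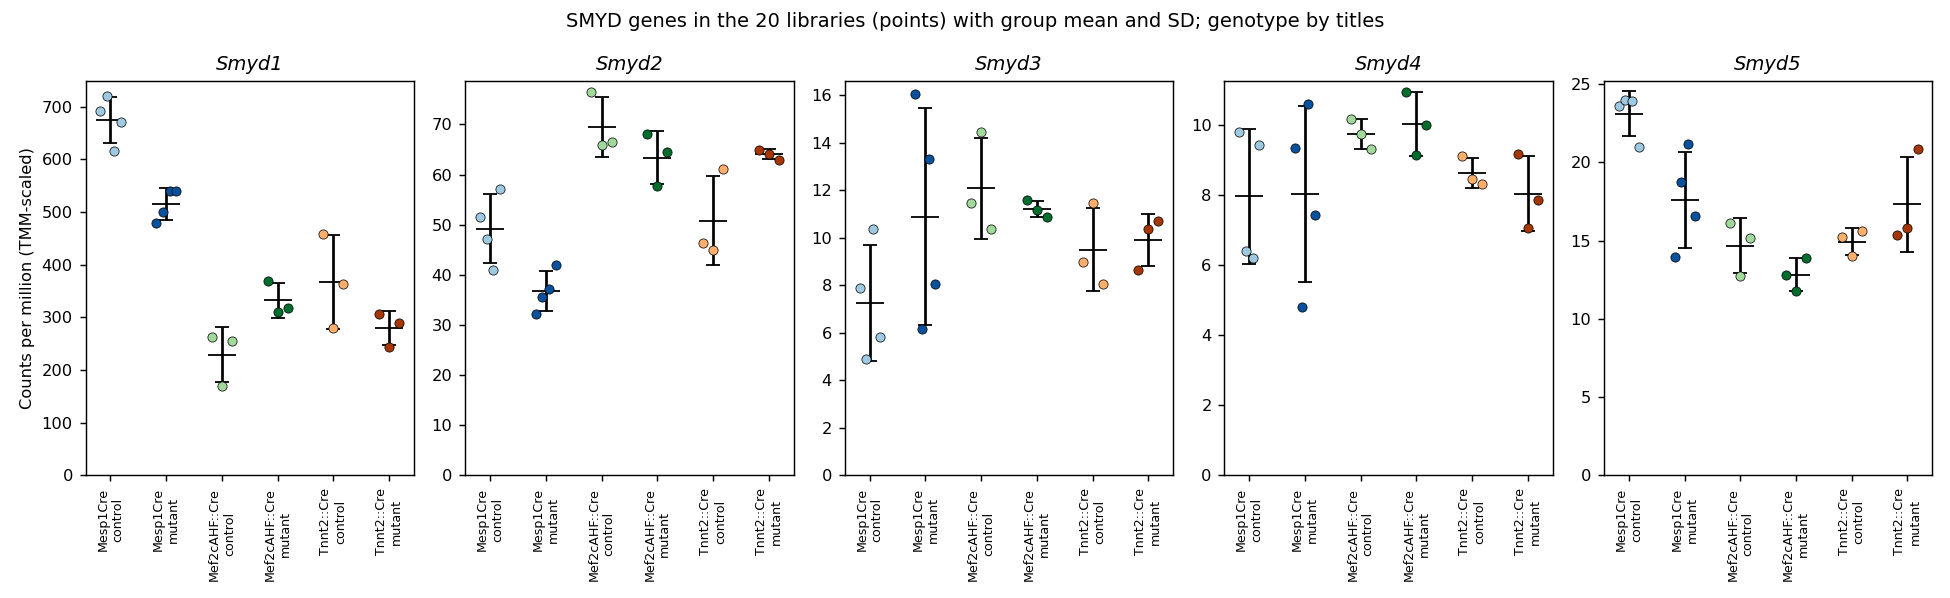
Level of each SMYD gene (CPM after TMM scaling, linear axes from 0) in the 20 libraries, grouped by Cre line and genotype as in the titles. Points are libraries, bars the group mean and lines the SD. Smyd1 is highest in the E9.0 Mesp1Cre controls (617 to 721 CPM) and lowest in the Mef2cAHF::Cre libraries labelled control (169 to 262 CPM).

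Smyd1, the muscle-restricted member, was lower in Mesp1Cre mutant hearts at E9.0. The 4 mutants had 480, 500, 540 and 540.5 CPM and the 4 controls 691, 721, 617 and 671 CPM. Every mutant lay below every control, with means of 515 ± 30.2 (SD, n = 4) and 675 ± 44.1 CPM. The log2 fold change was −0.37 (SE 0.07, 95% interval −0.53 to −0.22, adjusted p = 0.00566), which makes Smyd1 the only SMYD gene past the threshold in this line. That is 1 of 5 members lower, where 5.29% of the genes tested passed as lower, and 0 of 5 higher, where 6.17% passed as higher. Groups without overlap were also found for 18.1% of genes, and for 1 of the 5 members. On the deposited FPKM scale, where the median of all genes shifts by 0.15, the log2 difference of Smyd1 was −0.21 and its adjusted p 0.0722.

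In the Mef2cAHF::Cre libraries Smyd1 differed in the other direction by the titles. The libraries labelled mutant had 369, 309 and 317.5 CPM and those labelled control 262, 169 and 256 CPM. The groups did not overlap, as for 23.9% of genes tested, but the log2 difference of 0.54 (SE 0.16, 95% interval 0.19 to 0.89, adjusted p = 0.107) did not pass the threshold. By the column names the same libraries give −0.54. The library labelled control replicate 2 is the lowest of all 20 for Smyd1, and without it the difference by the titles was 0.36 with an adjusted p of 0.0475. In this line 0 of 5 SMYD genes passed in edgeR, against 1.81% of genes tested as higher and 1.04% as lower. Smyd1 was the 1 member at an unadjusted p of 0.05, as were 17.9% of genes, and the 1 that passed by the Wald test of DESeq2, as did 3.64% of genes.

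In Tnnt2::Cre hearts at E11.5 the 3 mutants had 306, 243 and 290.0 CPM of Smyd1 and the 3 controls 459, 280.0 and 362.5 CPM. The mutants are low and close together, the controls spread widely, and control replicate 2 falls among the mutants. The log2 fold change of −0.39 (SE 0.18, 95% interval −0.79 to 0.01, adjusted p = 0.429) did not pass. In this line 0 of 5 SMYD genes passed in edgeR, against 0.0763% of genes tested as higher and 0.217% as lower. Of the members only Smyd2, described below, was at an unadjusted p of 0.05, as were 11.9% of genes, and 0 passed by the Wald test of DESeq2, as did 1.42% of genes. Without control replicate 1, the highest control, the value of Smyd1 was −0.20, and without control replicate 2 it was −0.55.

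The genotype differences were then compared between lines. For Smyd1 the Mesp1Cre difference minus the Tnnt2::Cre difference was 0.00 (95% interval −0.43 to 0.43, adjusted p = 1.00), tested as an interaction in 1 fit of all 20 libraries. By the titles, the Mesp1Cre difference was lower than that of Mef2cAHF::Cre by −0.93 (95% interval −1.36 to −0.49, adjusted p = 0.00632; 11.3% of genes passed), and the Mef2cAHF::Cre difference exceeded that of Tnnt2::Cre by 0.93 (0.47 to 1.39, adjusted p = 0.0242; 3.19% passed). By the column names the same differences were 0.15 (−0.29 to 0.58, adjusted p = 0.787; 1.63% passed) and −0.14 (−0.60 to 0.32, adjusted p = 1). In the latter contrast 0 of 18391 genes passed. By the column names, then, the log2 fold changes of Smyd1 were −0.37 for Mesp1Cre, −0.39 for Tnnt2::Cre and −0.54 for Mef2cAHF::Cre, of which the first alone passes the threshold. By the column names, Mesp1Cre minus Mef2cAHF::Cre was −0.56 for Smyd2 (95% interval −0.91 to −0.20, adjusted p = 0.1001) and −0.59 for Smyd5 (−1.002 to −0.17, adjusted p = 0.137), against −0.29 and −0.20 by the titles. Of these the Smyd2 value by the column names passed by the Wald test of DESeq2 (adjusted p = 0.0457).

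**Figure D2:**
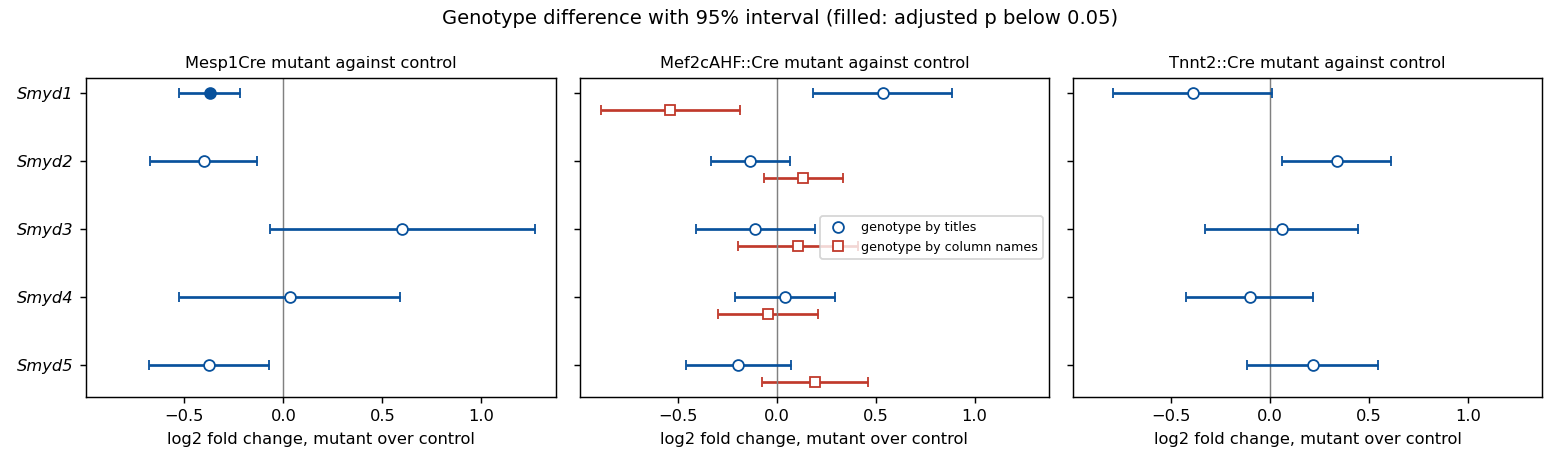
Log2 fold change of mutants over controls for the SMYD genes in each Cre line, with 95% intervals from the edgeR fit. Filled symbols pass an adjusted p of 0.05, and squares give the Mef2cAHF::Cre values by the column names. Smyd1 in Mesp1Cre is the one filled symbol (−0.37), and Smyd2 lies at −0.40 in Mesp1Cre and at 0.34 in Tnnt2::Cre.

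Since Smyd1 is made by muscle cells, its level was also set against 20 cardiomyocyte markers, as log2 CPM of Smyd1 minus the mean log2 CPM of the list. In Mesp1Cre the mutants had −0.81, −0.73, −0.81 and −0.62 and the controls −0.38, −0.38, −0.28 and −0.48. The difference of −0.36 (exact two-sided permutation p = 0.0286, the smallest that 4 against 4 allows, and 0.0952 after adjustment over 5 comparisons) compares with −0.37 for Smyd1 itself, and the mean of the markers differed by −0.03 (exact p = 0.8). In Tnnt2::Cre the mutants had −1.68, −2.06 and −1.88 and the controls −1.01, −1.58 and −1.57, with no overlap and a difference of −0.48 (exact p = 0.1, the smallest that 3 against 3 allows), which was −0.29 without control replicate 1. In Mef2cAHF::Cre the difference by the titles was 0.28 (exact p = 0.1), and the markers themselves were higher by 0.28 in the libraries labelled mutant (exact p = 0.1, no overlap). With Actn2 alone as the reference the differences were −0.37, −0.66 and 0.57 in the same order of lines.

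Smyd2, whose product methylates p53, RB1 and HSP90, had opposite differences in the whole-heart lines. In Mesp1Cre the mutants had 32.2, 35.7, 37.1 and 41.9 CPM and the controls 51.5, 47.2, 40.9 and 57.1 CPM. Only the highest mutant reaches into the control range. The means were 36.7 ± 4.02 (SD, n = 4) and 49.2 ± 6.86 CPM, and the log2 fold change of −0.40 (SE 0.12, 95% interval −0.67 to −0.13) just missed the threshold (adjusted p = 0.0555). With a library left out it passed only without control replicate 3 (adjusted p = 0.0355). That library is the lowest control, so its absence raises the control mean.

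In Tnnt2::Cre the mutants had 65.0, 64.2 and 63.0 CPM of Smyd2 and the controls 46.4, 44.99 and 61.1 CPM. All mutants lay above all controls, which was the case in either direction for 16.9% of genes and for 1 of the 5 members. The log2 fold change was 0.34 (SE 0.12, 95% interval 0.06 to 0.61, adjusted p = 0.343). The difference between the lines was itself past the threshold. Mesp1Cre minus Tnnt2::Cre was −0.76 (SE 0.17, 95% interval −1.11 to −0.40, adjusted p = 0.0204), where 3.04% of all genes passed, and Smyd2 was the 1 member of 5 that did. In Mef2cAHF::Cre the libraries labelled mutant had 68.0, 57.7 and 64.6 CPM and those labelled control 76.5, 65.8 and 66.4 CPM. These ranges overlap, and the log2 difference was −0.13 by the titles (95% interval −0.33 to 0.07, adjusted p = 0.487) and 0.13 by the column names.

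Smyd5, whose product places repressive marks with the corepressor NCOR1, had its lowest Mesp1Cre values in mutants. The mutants had 13.9, 18.8, 21.2 and 16.6 CPM and the controls 23.6, 24.0, 23.9 and 21.0 CPM. All mutants but replicate 3 lay below the lowest control. The means of 17.6 ± 3.08 (SD, n = 4) and 23.1 ± 1.44 CPM gave a log2 fold change of −0.37 (95% interval −0.68 to −0.07, adjusted p = 0.105). In Tnnt2::Cre the mutants had 15.3, 15.8 and 20.8 CPM and the controls 15.3, 14.0 and 15.6 CPM, a log2 fold change of 0.22 (−0.11 to 0.54, adjusted p = 0.605) that rests on mutant replicate 3. The difference of these 2 values, −0.60 (−1.02 to −0.19), had an adjusted p of 0.0973. In Mef2cAHF::Cre the log2 difference was −0.19 by the titles (−0.46 to 0.07, adjusted p = 0.441) and 0.19 by the column names.

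Smyd3, which encodes a methyltransferase of MAP3K2 and of the VEGF receptor FLT1, was the most variable member in the Mesp1Cre hearts. The mutants had 16.04, 6.17, 13.3 and 8.04 CPM and the controls 7.91, 4.91, 10.4 and 5.81 CPM. The ranges overlap widely and the log2 fold change of 0.60 (95% interval −0.07 to 1.27, adjusted p = 0.237) spans 0. In Tnnt2::Cre it was 0.06 (−0.33 to 0.45, adjusted p = 0.926), and in Mef2cAHF::Cre −0.11 by the titles (−0.41 to 0.19, adjusted p = 0.737).

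Smyd4, which carries tetratricopeptide repeats beside the SET and MYND domains, had overlapping ranges in all lines. It ran from 4.81 to 10.6 CPM in Mesp1Cre mutants and from 6.21 to 9.78 CPM in controls, with a log2 fold change of 0.03 (95% interval −0.53 to 0.59, adjusted p = 0.958). The values were 0.04 by the titles in Mef2cAHF::Cre (−0.21 to 0.30, adjusted p = 0.891) and −0.10 in Tnnt2::Cre (−0.43 to 0.22, adjusted p = 0.823). For Smyd3 and Smyd4 all of these intervals span 0, and differences within them are not excluded at this depth and number of libraries.

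Between stages, the control whole hearts at E11.5 (Tnnt2::Cre) were set against those at E9.0 (Mesp1Cre), and the mutants likewise. According to the labels, the mutants and controls of a line were sequenced together, so stage cannot be told apart here from Cre line and from sequencing lanes, and these comparisons share their libraries with the genotype comparisons above. Smyd1 was lower at E11.5 in both. Control means were 367 ± 89.6 (SD, n = 3) against 675 ± 44.1 CPM (n = 4), a log2 fold change of −0.91 (SE 0.14, 95% interval −1.22 to −0.60, adjusted p = 4.39e-04). Mutant means were 280 ± 33.0 against 515 ± 30.2 CPM, a log2 fold change of −0.90 (SE 0.10, −1.12 to −0.68, adjusted p = 2.22e-04). The highest E11.5 library of either genotype, with 459 CPM, lay below the lowest at E9.0, with 480 CPM. Set against the 20 cardiomyocyte markers, Smyd1 was lower at E11.5 by 1.01 in controls and by 1.13 in mutants (exact permutation p = 0.0571 for each, the smallest that 3 against 4 allows).

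Smyd5 passed between stages in controls, with 14.9 ± 0.843 CPM at E11.5 against 23.1 ± 1.44 at E9.0 and no overlap (log2 fold change −0.66, SE 0.11, 95% interval −0.91 to −0.41, adjusted p = 9.14e-04). In mutants the means were 17.3 ± 3.05 and 17.6 ± 3.08 CPM (−0.04, −0.44 to 0.35, adjusted p = 0.869). Smyd2 passed in mutants instead. In controls it stood at 50.8 ± 8.89 and 49.2 ± 6.86 CPM (0.01, −0.29 to 0.31, adjusted p = 0.947), and in mutants at 64.0 ± 0.998 against 36.7 ± 4.02 CPM, again with no overlap (0.78, SE 0.11, 0.54 to 1.03, adjusted p = 7.81e-04). The difference of the 2 stage differences is the same quantity as the difference between the lines given for each gene above, which passed for Smyd2 and not for Smyd5.

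Smyd3 and Smyd4 did not pass in either stage comparison. Their log2 fold changes were 0.36 (−0.19 to 0.91) and 0.09 (−0.36 to 0.53) in controls and −0.15 (−0.83 to 0.52) and −0.02 (−0.60 to 0.57) in mutants. In all, 2 of 5 members passed in controls, both lower, where 18.8% of genes passed as lower and 19.6% as higher. In mutants 1 of 5 passed as lower, where 17.1% of genes did, and 1 as higher, where 18.8% did. Groups did not overlap for 2 members in each, against 45.4% and 43.9% of genes.

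**Figure D3:**
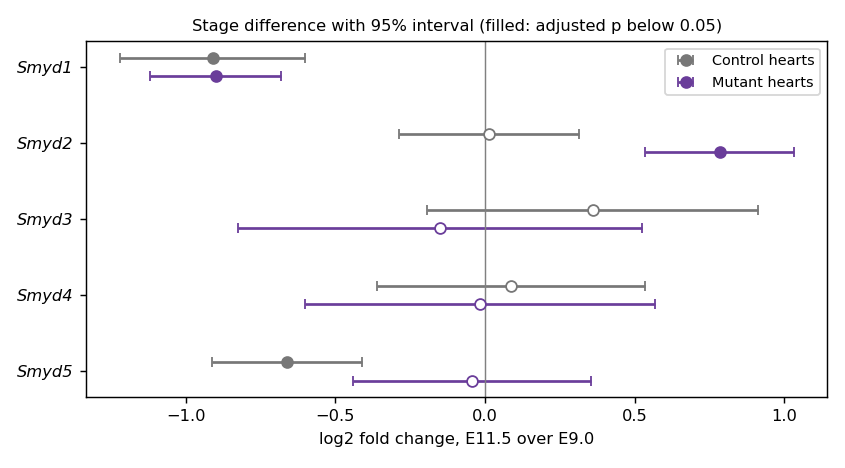
Log2 fold change of E11.5 over E9.0 whole hearts for the SMYD genes, with 95% intervals, in controls (grey) and mutants (purple). Filled symbols pass an adjusted p of 0.05. Smyd1 is near −0.9 in both genotypes, Smyd2 differs in mutants (0.78) and Smyd5 in controls (−0.66).

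Ordered by mean CPM over the 6 groups, Smyd1 ran from Mesp1Cre controls (675) and Mesp1Cre mutants (515) through Tnnt2::Cre controls (367), Mef2cAHF::Cre labelled mutant (332) and Tnnt2::Cre mutants (280) to Mef2cAHF::Cre labelled control (229). The ranges of neighbours in this order were separate except between the third and the fourth and between the last pair. Smyd2 was highest in the Mef2cAHF::Cre libraries labelled control (69.6 CPM), which lay above the Tnnt2::Cre mutants (64.0). The remaining neighbours in its order overlapped, down to the Mesp1Cre mutants (36.7). For Smyd3 and Smyd5 all neighbours overlapped, and for Smyd4 all but the Mef2cAHF::Cre libraries labelled control (9.73 CPM) and the Tnnt2::Cre controls (8.63).

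The make-up of the family was compared per length. Smyd1 gave 86.9 ± 0.925% of the summed SMYD FPKM in Mesp1Cre controls and 86.6 ± 0.391% in Mesp1Cre mutants (exact permutation p = 0.514). In Tnnt2::Cre its share was 72.7, 68.2 and 71.0% in the mutants and 83.5, 76.2 and 76.9% in the controls. Each mutant is below each control, by 8.23 percentage points on average (exact p = 0.1), and the share of Smyd2 was 21.6 ± 1.99% against 14.9 ± 3.20%. In Mef2cAHF::Cre the share of Smyd1 was 74.8 ± 1.13% in the libraries labelled mutant and 64.7 ± 4.80% in those labelled control (exact p = 0.1).

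**Figure D4:**
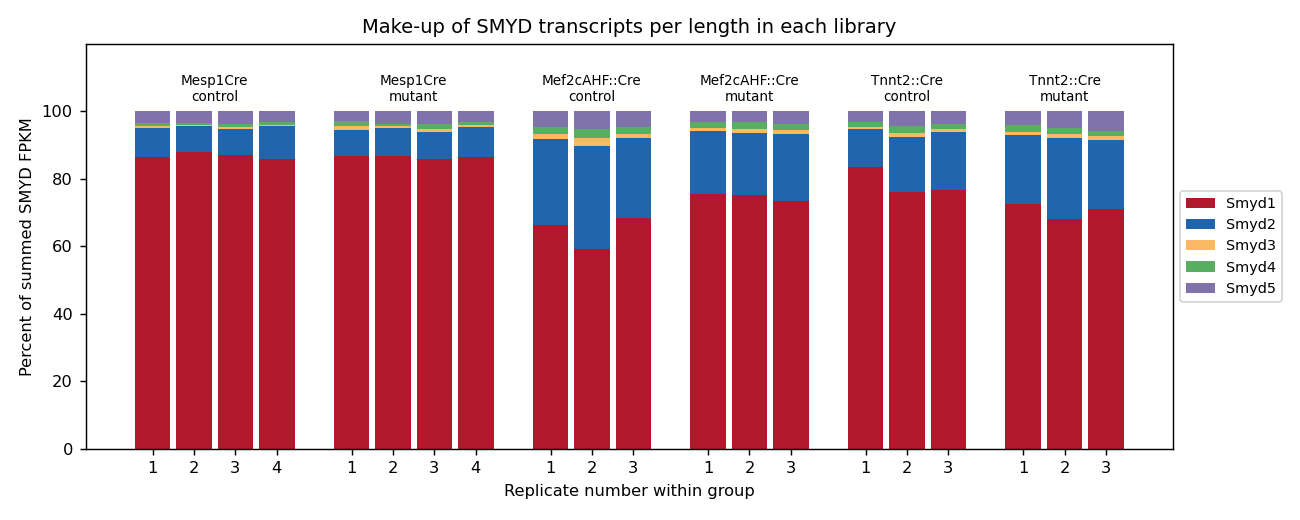
Share of each SMYD gene in the summed SMYD FPKM of each library, in percent, with replicates numbered within each group (genotype by the titles). Smyd1 takes 85.9 to 88.1% in the E9.0 control hearts and 59.3 to 68.5% in the Mef2cAHF::Cre libraries labelled control, where Smyd2 takes up to 30.6%.

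Of 22 genes listed as partners and regulators of SMYD1, 1 passed as lower and 1 as higher in Mesp1Cre, where 5.29% and 6.17% of all genes did. The list takes in general heart genes such as Nppa, Gata4 and Isl1. Myh6, Myh7 and Actc1 are in it and also among the cardiomyocyte markers. Unc45b, the chaperone that folds muscle myosin with HSP90, was lower, with 114, 112, 90.8 and 108 CPM in mutants and 157, 152, 129 and 143 CPM in controls (log2 fold change −0.44, SE 0.09, adjusted p = 0.00971). Tbx5, a T-box factor of the atria and left ventricle, was higher (0.74, SE 0.15, adjusted p = 0.00715). The median of the list was −0.08, against −0.002 for all genes tested. Hand2, a transcription factor whose expression depends on SMYD1 in the embryonic heart, had a log2 fold change of −0.45 (adjusted p = 0.0863), Hsp90aa1 of −0.29 (0.0743), and the myosin heavy chains Myh6 and Myh7 of −0.08 (0.711) and 0.29 (0.343). Naca differed by 0.11 (adjusted p = 0.306). Its count does not separate the muscle form from the common one.

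In Mef2cAHF::Cre 2 of the 22 passed, both higher by the titles, as were 1.81% of all genes. Unc45b had 87.3, 77.7 and 84.2 CPM in the libraries labelled mutant and 55.6, 44.1 and 53.0 CPM in those labelled control (0.71, SE 0.09, adjusted p = 0.00847), and Trim63, a muscle ubiquitin ligase, differed by 0.59 (adjusted p = 0.0291). Trim63 passed in 2 of the 6 fits with a library left out and in 7 of 11 other alternatives, and Unc45b in 5 and 10 of them. In Tnnt2::Cre 0 of the 22 passed in edgeR, with 5 at an unadjusted p of 0.05 and 1 past the threshold in DESeq2. Of all genes 0.0763% passed there as higher and 0.217% as lower in edgeR, 11.9% were at that p, and 1.42% passed in DESeq2. Unc45b had 79.0, 65.2 and 77.1 CPM in mutants and 100.0, 83.5 and 100.7 CPM in controls, with no overlap (−0.36, adjusted p = 0.275). The Unc45b groups did not overlap in any line, and their order was that of the Smyd1 means in each. Among all genes, groups were likewise separate for 16.9% with Tnnt2::Cre, 18.1% with Mesp1Cre and 23.9% with Mef2cAHF::Cre. How many genes were separate in every line and followed the order of Smyd1 was not counted.

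Between stages 14 of the 22 were lower and 2 higher at E11.5 in controls, with a median of −0.67, and 11 were lower and 1 higher in mutants, with a median of −0.35. Of all genes tested 18.8% were lower and 19.6% higher in controls and 17.1% and 18.8% in mutants, with medians of −0.01 and 0.01. Unc45b was lower in both (−0.65, adjusted p = 3.13e-04, and −0.54, adjusted p = 0.00444). So were the transcription factors Mef2c (−1.31 and −1.17) and Myocd (−1.58 and −1.45), which drive muscle genes and act upstream of Smyd1. Nppa, the natriuretic peptide of the chambers, was higher (1.24 and 2.61).

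The genes whose log2 CPM followed Smyd1 most closely over the 20 libraries, among the 12311 genes averaging 1 or more in log2 CPM, were Fign (Pearson r = 0.962), Hist1h3g (0.952), Abca4 (0.949), Unc45b (0.946) and Gsbs (0.942). Libraries of a line share stage, tissue and sequencing lanes, so the 20 points are not independent. After subtracting each group's mean the closest were Cugbp1 (0.837) and Hapln1 (0.825), and Unc45b was not among the first 5. For Smyd2 the closest gene was Cyc1, which encodes cytochrome c1 of the respiratory chain, both over all libraries (0.974) and after subtracting group means (0.898), followed in the latter by Mdh1 (0.839), a malate dehydrogenase. For Smyd3 they were AL606962.5 (0.868) and, within groups, Myo1d (0.902) and the SET domain gene Ezh1 (0.900). For Smyd4 it was Drp2 in both (0.889 and 0.898). For Smyd5 they were D5Wsu178e (0.949) and, within groups, Ipo4 (0.870). Among the members themselves, Smyd1 had r = 0.703 with Smyd5 and −0.631 with Smyd2 over all libraries, and 0.431 and 0.331 within groups.

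**Figure D5:**
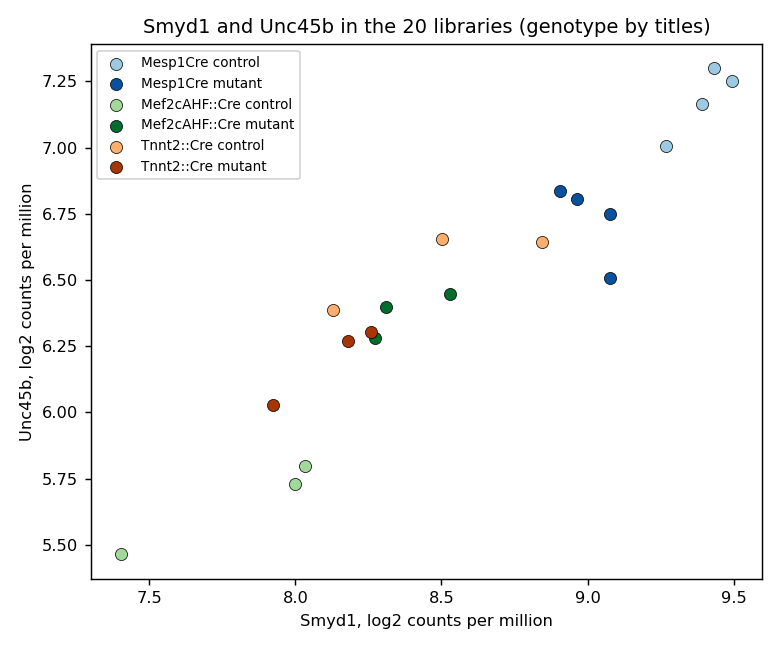
Smyd1 against Unc45b, both as log2 CPM, in the 20 libraries, coloured by group with genotype by the titles. Pearson r is 0.946 over the 20 libraries, and those of a line share stage, tissue and sequencing lanes. In Tnnt2::Cre the genotypes overlap in Smyd1 and not in Unc45b.

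Among 15 listed substrates and partners of SMYD2, SMYD3 and SMYD5, 4 passed in Mesp1Cre and all were higher, as were 6.17% of all genes. They include Rb1 (1.18, adjusted p = 7.49e-04), the retinoblastoma protein methylated by SMYD2, and the VEGF receptors Flt1 (1.09, adjusted p = 1.53e-04) and Kdr (0.74, adjusted p = 1.37e-04). The median of the list was 0.005. In Mef2cAHF::Cre 0 of the 15 passed in edgeR, with 2 at an unadjusted p of 0.05 and 2 past the threshold in DESeq2. Of all genes 1.81% passed there as higher and 1.04% as lower in edgeR, 17.9% were at that p, and 3.64% passed in DESeq2. In Tnnt2::Cre 0 passed in either tool and 0 were at an unadjusted p of 0.05. There 0.0763% of all genes passed as higher and 0.217% as lower in edgeR, 11.9% were at that p, and 1.42% passed in DESeq2. Between stages 4 were higher and 6 lower in controls, where 19.6% and 18.8% of all genes were, and 3 were higher and 5 lower in mutants, where 18.8% and 17.1% were.

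Other SET domain methyltransferases were compared as the wider enzyme class. In Mesp1Cre 4 of 36 rose, where 6.17% of all genes passed as higher and 5.29% as lower, among them Setd5 (0.71, adjusted p = 1.60e-04), Mll5 (0.66, adjusted p = 5.48e-04) and Mll3 (0.29, adjusted p = 0.0199), the last of which encodes the close relative of KMT2D. One, Setd8, which encodes the H4 lysine 20 monomethyltransferase, fell (−0.31, adjusted p = 0.0274). With 1 library left out, Setd8 passed in 3 of 8 fits and Mll3 in 5 of 8. The median over the class was 0.01, with 19 values above 0 and 17 below. In Mef2cAHF::Cre and Tnnt2::Cre 0 of 36 passed in edgeR or in DESeq2, with 5 and 1 at an unadjusted p of 0.05. In the same order 17.9% and 11.9% of all genes were at that p, and 3.64% and 1.42% passed in DESeq2. In edgeR 1.81% and 0.0763% of all genes passed as higher and 1.04% and 0.217% as lower. At E11.5, 11 were lower and 1 higher in controls, and 15 were lower and 0 higher in mutants, with medians of −0.21 and −0.22. Of all genes 18.8% were lower in controls and 17.1% in mutants. Single genes of the class were lower by amounts like those of Smyd1, among them Prdm6 (−1.26), Setd7 (−0.83) and Suv39h2 (−0.81) in controls and Setd5 (−1.06) and Mll5 (−0.83) in mutants.

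Markers of the cells in these tissues give the setting of the Smyd1 values. Of all genes tested 6.17% passed as higher and 5.29% as lower in Mesp1Cre, and 1.81% and 1.04% in Mef2cAHF::Cre. In Tnnt2::Cre 0.0763% passed as higher and 0.217% as lower, 11.9% were at an unadjusted p of 0.05, and 1.42% passed in DESeq2. Of 20 cardiomyocyte markers, 2 were higher and 3 lower in Mesp1Cre mutants, including Ttn (0.57, adjusted p = 0.00782) and Tnni3 (−0.78, adjusted p = 0.00215), with a median of −0.03. Their summed level ran from 48560 to 62110 CPM in controls and from 60000.0 to 72240 in mutants. Ttn alone gave 21620 CPM of this sum on average in controls and 31740 in mutants. The mean log2 CPM of the 20 markers differed by −0.03. In Mef2cAHF::Cre 1 passed, Tnni3 (1.09, adjusted p = 6.97e-04), and the median was 0.22. In Tnnt2::Cre 0 passed in edgeR and 2 in DESeq2, with 4 at an unadjusted p of 0.05 and a median of 0.14. Myod1 and Myf6, factors that determine skeletal muscle, the other tissue that expresses Smyd1, were at 0 in all 8 Mesp1Cre libraries. In the E11.5 groups each of the 10 skeletal muscle markers had reads. Their summed level ran from 158.5 to 206.7 CPM in Tnnt2::Cre mutants and from 108.0 to 152.9 in controls. Most of it was Acta1, with means of 184.2 and 134.8 CPM. At E9.0 the sum was larger, with 213.8 to 342.2 CPM in controls and 236.2 to 271.2 in mutants. Acta1 stood there at 300.9 and 251.7 CPM. The 1 of these markers that passed in Tnnt2::Cre was Ckm, the muscle creatine kinase, which was lower (−3.21, adjusted p = 0.0274). Ckm stood at 0.0957 ± 0.0505 CPM (SD, n = 3) in mutants and 0.923 ± 0.138 in controls, and passed in 1 of the 6 fits with a library left out, without mutant replicate 1, and in 6 of 10 other alternatives, with a value of −0.77 on log2(FPKM + 1). Of 10 smooth muscle and mesenchymal markers 2 were lower in Mesp1Cre mutants, Cnn1 (−0.46, adjusted p = 0.00481) and Col3a1 (−0.63, adjusted p = 0.0495). With 1 library left out Col3a1 passed in 2 of 8 fits, without control replicate 4 or mutant replicate 2, and Cnn1 in all 8. Of 10 endothelial and endocardial markers 3 were higher in Mesp1Cre mutants, 1 was higher in the Mef2cAHF::Cre libraries labelled mutant, and 0 passed in Tnnt2::Cre in edgeR against 1 in DESeq2, with 1 at an unadjusted p of 0.05. Of the 13 erythroid markers found, 5 were lower in Mesp1Cre mutants, 2 were higher in the Mef2cAHF::Cre libraries labelled mutant, 0 passed in Tnnt2::Cre in either tool with 0 at an unadjusted p of 0.05, and 13 were higher at E11.5 in each genotype. With the erythroid list left out before scaling, the log2 fold change of Smyd1 in Mesp1Cre stayed at −0.37. Of all genes tested 19.6% were higher at E11.5 in controls and 18.8% in mutants. Of the epicardial markers 7 of 8, and of the macrophage markers 7 of 8, were higher at E11.5 than at E9.0 in controls. The part of these other cells in the stage difference of Smyd1 was not tested.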

How the data were processed

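RNA-seq libraries of embryonic heart were analysed from 1 deposited table of the series, with 21727258 to 45341870 counted reads a library. This depth sets counting error only, since reads were not counted by molecule. According to the submitters' processing notes and the study's methods, the authors aligned reads to mm9 with TopHat2 2.0.8b, counted them over genes with featureCounts, and the deposited counts are not normalized. Beside each count the authors deposited an FPKM value made with USeq 8.6.4, which equals the count divided by gene length and by the library's counted reads. The name of the deposited table credits USeq with the counts as well, and which tool made them is not settled here. The 20 columns of variance-corrected log2 values were not used here. Whether counting used strand is not given in the sources used here, and the study and the labels name different library kits and sequencers. Nothing states that libraries of a group came from separate litters, so p-values measure the spread between these libraries.

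Samples were grouped by titles and genotypes, and Mef2cAHF::Cre was also read by the column names. Counts were fitted within each comparison by the quasi-likelihood F test of edgeR 4.0.16 (R 4.3.3) after filterByExpr and TMM, with Benjamini-Hochberg adjustment over all genes tested and a threshold of 0.05. Differences between lines were interaction contrasts in 1 fit of 20 libraries, which also gave the CPM printed. Single values were compared by exact two-sided permutation tests (scipy 1.17.1). The fits were tested on simulated data. Alternatives were DESeq2 size factors, the Wald test of DESeq2 1.42.0, looser and stricter filters on low counts, 1 fit of all libraries, blocks by replicate number or by the number in the sample description, limma-trend of limma 3.58.1 on log2(FPKM + 0.1) and log2(FPKM + 1), the erythroid list left out, cardiomyocyte marker level or sex as covariates, the column-name genotypes, other marker references, shares of counts, and each replicate left out.

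The members and the 10 gene lists were chosen with earlier results of these data known. The text names the members, Kmt2d, any gene of the SMYD1 list, up to 3 genes past the threshold per other list, comparison and direction, and the genes closest to each member by Pearson r of log2 CPM (prior count 2). Promoter windows came from RefSeq (GRCm38.p6) and were found in mm9 by exact match. Transcripts were searched against mm9 with BLAST+ 2.17.0.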

Additional observations from a re-analysis of the deposited data

Results flagged for a closer look

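Smyd5 in the Mesp1Cre controls had 1 library far from the other 3. Control replicate 4 stood at 21.0 CPM against 23.6 to 24.0 CPM, and its gap to the nearest control was 0.884 of the range of the group, above the Dixon limit of 0.829 for 4 samples. Of the 14 groups of 4 values tested this way, chance flags about 1 in 20.

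The genotype difference of Smyd2 in Mesp1Cre minus that in Tnnt2::Cre was −0.76 on the log2 scale, past the threshold in the test of the interaction (adjusted p = 0.0204).

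By the titles, the genotype difference of Smyd1 in Mesp1Cre minus that in Mef2cAHF::Cre was −0.93 (adjusted p = 0.00632), and that in Mef2cAHF::Cre minus that in Tnnt2::Cre was 0.93 (adjusted p = 0.0242). Both rest on the genotype labels of Mef2cAHF::Cre, and by the column names they were 0.15 and −0.14.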

How the results depend on the processing

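In Mesp1Cre Smyd1 kept its direction in every alternative run and its call in all but limma on FPKM, where it had −0.21 (adjusted p = 0.0722, pseudocount 0.1) and −0.21 (0.0699, pseudocount 1). With pseudocount 0.1, where the median of all genes shifted by 0.15, 1635 genes passed as higher and 289 as lower, against 980 and 841 with edgeR. In Mef2cAHF::Cre 111 were higher and 180 lower (median −0.13), against 306 and 176. Smyd2 passed in Mesp1Cre with the Wald test (−0.40, adjusted p = 0.0172), at least 10 counts in every library (−0.39, 0.0461), 1 fit of all libraries (−0.42, 0.0126), sex as a covariate (−0.54, 0.0429) and the block by the number in the description (−0.40, 0.0484). Smyd5 passed in 1 fit of all libraries (−0.39, 0.0387). The count of SMYD genes past the threshold was therefore 2 in 4 of these settings, 3 in 1 fit of all libraries and 0 on FPKM, against 1. Since all 4 Mesp1Cre mutants were male, the values with sex as a covariate set them against the 2 male controls.

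In Mef2cAHF::Cre Smyd1 passed with the Wald test (0.53, adjusted p = 0.00642), all genes with at least 1 count (0.53, 0.00227) and sex as a covariate (0.36, 0.0497), each time as the 1 SMYD gene. Only 1 library of this line was male, a labelled control, so the sex covariate amounts to leaving that library out. The value without labelled control replicate 2 was also 0.36. By the column names the values of Smyd1 to Smyd5 were −0.54, 0.13, 0.11, −0.043 and 0.19. The Smyd1 value relative to the markers was then −0.28, its share −10.06 percentage points, and the differences between lines were 0.15 (Smyd1) and 0.054 (Smyd4) for Mesp1Cre minus Mef2cAHF::Cre and −0.14 (Smyd1) and 0.050 (Smyd3) for Mef2cAHF::Cre minus Tnnt2::Cre. Smyd5 passed for Mesp1Cre minus Tnnt2::Cre with the Wald test (−0.60, adjusted p = 0.0402). With the cardiomyocyte marker level as a covariate, Smyd3 passed between stages in controls (0.60, 0.043) and Smyd2 did not in mutants (0.81, 0.0832), which left 1 SMYD gene there. The cause of these shifts was not tested.

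Members with values near 0 changed sign. These were Smyd4 in Mesp1Cre with sex (−0.24), Smyd3 in Mef2cAHF::Cre with the marker level (0.14) or sex (0.041), Smyd4 there on FPKM (−0.090 and −0.066) or with the marker level (−0.044), Smyd4 in Tnnt2::Cre on FPKM (0.0052 and 0.0031), Smyd2 between stages in controls on FPKM (−0.028 and −0.026) or with the marker level (−0.11), and Smyd4 between stages in mutants with all genes (0.019) or 1 fit of all libraries (0.0018).

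Leaving out each replicate in turn gave −0.48 to −0.33 for Smyd2 and −0.12 to 0.23 for Smyd4 in Mesp1Cre, with 1 to 2 SMYD genes past the threshold (2 without control replicate 3). It gave 0.36 to 0.64 for Smyd1, −0.21 to 0.044 for Smyd3 and −0.024 to 0.10 for Smyd4 in Mef2cAHF::Cre, with 0 to 1 past (1 without the library labelled control replicate 2), and −0.55 to −0.20 for Smyd1 and −0.049 to 0.22 for Smyd3 in Tnnt2::Cre. Between stages the ranges were −0.13 to 0.11 (Smyd2) and −0.011 to 0.20 (Smyd4) in controls and −0.35 to 0.087 (Smyd3), −0.20 to 0.14 (Smyd4) and −0.19 to 0.053 (Smyd5) in mutants. Smyd1 relative to the markers in Mesp1Cre ran from −0.40 to −0.33, with exact p at 0.0571, the smallest possible with 3 against 4, and its share from −0.73 to 0.0027 percentage points. In Tnnt2::Cre the former ran from −0.58 to −0.29. Of the other named genes, calls were lost without a library for Trim63 (adjusted p up to 0.139 without labelled mutant replicates 1 or 2 or control replicates 1 or 3) and Unc45b (0.058 without labelled mutant replicate 1) in Mef2cAHF::Cre, for Setd8 (up to 0.0912 without control replicates 1 or 2 or mutant replicates 1, 3 or 4), Mll3 (up to 0.0601 without control replicates 1, 2 or 3) and Col3a1 (up to 0.140 without any but control replicate 4 and mutant replicate 2) in Mesp1Cre, and for Ckm in Tnnt2::Cre (up to 0.194 without any but mutant replicate 1).

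Replicate numbers are shared between groups, but same-numbered libraries did not deviate together (correlations from −0.09 to 0.13), and 4 of 8, 3 of 6 and 2 of 6 libraries correlated best with their own number in Mesp1Cre, Mef2cAHF::Cre and Tnnt2::Cre. With the replicate block Smyd1 passed in Mef2cAHF::Cre (0.56, adjusted p = 0.043), as the 1 SMYD gene, and Smyd4 between stages in mutants was 0.010. The block ended the calls of Mll3 and Col3a1 in Mesp1Cre and of Ckm in Tnnt2::Cre, changed no other call of a SMYD gene, and moved the count over all genes from 50 to 28 in Tnnt2::Cre.

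Over all genes, counts past the threshold moved by more than 1.5 times from 1821 in Mesp1Cre (3593 in 1 fit, 899 with sex, 1052 to 2161 without a replicate), 482 in Mef2cAHF::Cre (64 to 1311, and 75 to 662 without a replicate), 50 in Tnnt2::Cre (10 to 366, and 4 to 896 without a replicate) and 5973 between mutant stages (580 with the marker level, 3374 with the replicate block, 3863 to 5723 without a replicate). Of the counts that moved this far, the extreme ones came without mutant replicate 1 (1052) in Mesp1Cre, the library labelled mutant replicate 2 (75) in Mef2cAHF::Cre, control replicate 3 (4) and mutant replicate 1 (896) in Tnnt2::Cre, and Tnnt2::Cre mutant replicate 3 (3863) between mutant stages.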
